A study of Rattus norvegicus with 6 samples.

Results

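The nuclear-encoded subunits of respiratory complexes II to V and cytochrome c were read from 6 one-colour Agilent arrays of rat liver RNA. A gene was a member when its RefSeq symbol was Sdha, Sdhb, Sdhc, Sdhd, Cyc1 or Cycs, or began with Uqcr, Atp5, Cox4, Cox5, Cox6, Cox7 or Cox8. This rule used symbols only, but it was set with earlier results of these data known. It gave 45 genes of the 15284 that could be named, on 81 probes: 4 of complex II, 8 of complex III, cytochrome c itself, 17 of complex IV and 15 of complex V. One member of the complex IV group, Cox6c-ps1, is annotated as a pseudogene, so 44 members are protein coding. No probe was named Cyc1, Cox7a1 or Cox7b2, and their transcripts were not analysed here.

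The arrays came from 6 male Sprague-Dawley rats, an outbred stock. Of these, 3 were dosed with 1000 mg/kg/day of tert-butyl alcohol (tBA), the alcohol with a tertiary butyl group that serves as an industrial solvent, and 3 were given vehicle. The animals were 5 weeks old at purchase. The labels disagreed on the vehicle, which was purified water in the sample labels and corn oil in the treatment protocol. They also disagreed on the dosing time, which was 28 days in the series design and 9 weeks in the protocol. Each array was hybridised with total RNA of whole liver, so fewer cells of a type and less RNA per cell cannot be told apart. The labels do not say how many animals stand behind an array beyond naming 3 per group.

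Respiratory complexes sit in the inner mitochondrial membrane and pass electrons from nutrients to oxygen while pumping protons. Complex II is succinate dehydrogenase, a citric acid cycle enzyme that hands electrons to ubiquinone. Complex III passes them from ubiquinol to the soluble carrier cytochrome c, complex IV (cytochrome c oxidase) reduces oxygen with them, and complex V (ATP synthase) uses the proton gradient to make ATP. Hepatocytes are rich in mitochondria and spend this ATP on gluconeogenesis, urea synthesis and secretion. Most subunits are encoded in the nucleus, and complexes III, IV and V also hold subunits encoded by mitochondrial DNA, which were not among the members.

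Levels are given as log2 of an array's processed signal over its own 75th percentile, so a difference of 1 is a doubling. Signal was compared between probes to choose a gene's brightest probe and to rank genes into classes of signal, and it was summed over probes for lists of cell type markers. It depends on the probe as well as on the transcript, also in those sums. The share of the 61657 probes called well above background ran between 61.5% and 66.9% over the arrays. Slide 1 carried tBA replicate 1 with the 3 vehicle arrays, and slide 2 carried tBA replicates 2 and 3. The hepatocyte markers Alb, Apoa1, Apob, Ttr, Tf, Serpina1, Cps1 and Cyp2e1 were well above background on all 6 arrays. Of the 45 members, 44 had a probe well above background throughout the tBA group, the vehicle group or both, and were tested; 43 of these are protein coding. The exception was Cox8c, known as a testis isoform of a complex IV subunit, whose probes were on no array well above background.

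None of the 44 tested members passed an adjusted p of 0.05 for tBA against vehicle in limma, a test in which 0.114% of all 37647 tested probes and 0.0451% of 11093 genes passed. The lowest adjusted p of a member was 0.236, for Uqcrq. At an unadjusted limma p under 0.05, 7 members were higher with tBA and 0 lower. These 7 are 15.9% of the members, against 7.64% of all tested genes that were higher and 7.44% that were lower by that rule. They were Uqcrq, Cox7c, Uqcr10, Atp5f1e, Sdhc, Cox6a2 and Cox6c-ps1.

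The differences were small and mostly of 1 sign. A difference above 0 was seen in 40 of the 44 members (90.9%), against 50.6% of all tested genes, and the median difference was 0.12 on the log2 scale, or 9.04%, against a median of 0.0032 over all tested genes. Members ranged from -0.075 for Atp5mc1 to 0.77 for Uqcrq. The median standard error of a member was 0.097. In 14 members (31.8%) the 3 tBA values all lay above the 3 vehicle values, against 12.8% of all tested genes, and in 0 members did they all lie below, against 11.3%. An exact two-sided permutation test of a single gene cannot go below p = 0.1 with 3 arrays in each group.

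Differences above 0 were also common among other strongly detected genes. By mean signal over the 6 arrays, 34 of the 44 tested members were among the brightest 10% of all tested genes. Of the 1110 genes in that class, 70.6% were higher with tBA and the median difference was 0.098. For the 34 members in it, 32 were higher (94.1%) and the median was 0.12. By array, the medians of these 34 were -0.0050, 0.16 and 0.17 on tBA replicates 1 to 3, against 0.093, 0.10 and 0.11 for the whole class. An unadjusted p under 0.05 with a higher value was found for 2 of these 34 (5.88%), against 14.1% of the 1110 genes. Groups that did not overlap, with tBA higher, were found for 10 of the 34 (29.4%), against 28.6%. Among all genes the median difference was -0.090 in the dimmest 10% and 0.098 in the brightest 10%. The part of this trend in the members' shift was not tested.

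**Figure D1:**
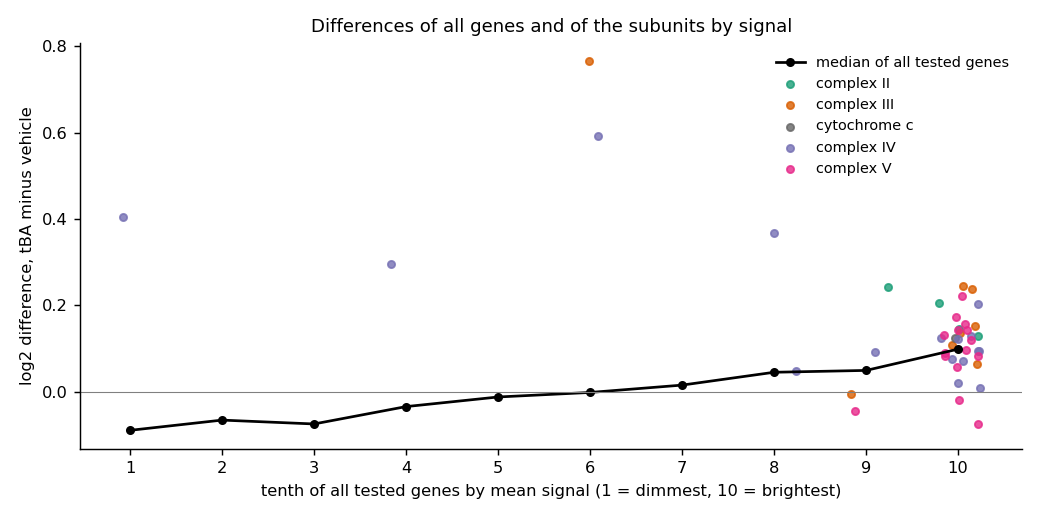
Log2 difference, tBA minus vehicle (vertical axis), by class of 10% of all 11093 tested genes ranked on mean signal (horizontal axis); the black line is the median of all genes in each class and the coloured points are single members by complex. The line reaches 0.098 in the brightest class, where 34 members lie, and Uqcrq and Cox6c-ps1 stand above the rest at 0.77 and 0.59.

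The tBA arrays were not alike in these genes. Relative to the mean of the vehicle arrays, the median over the 44 members was 0.0096 on tBA replicate 1, 0.17 on tBA replicate 2 and 0.18 on tBA replicate 3, against -0.0036, 0.011 and -0.020 on vehicle replicates 1 to 3. So the array that shared its slide with the vehicle group was at the vehicle level, and the pair of arrays on slide 2 carried the shift. Over the 1110 brightest genes the same medians were 0.093, 0.10 and 0.11 on tBA replicates 1 to 3, with no such gap between slides. Replicate 1 was the lowest of the 3 tBA arrays in 37 of 44 members (84.1%), against 31.2% of all tested genes and 37.5% of the brightest 10%.

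Against the range of the 3 vehicle arrays, tBA replicate 1 was above in 16 members, within in 19 and below in 9. Replicates 2 and 3 were above it in 35 and 36 members and below it in 0. The same counts for all tested genes are not given here. The brightest 10% of genes also had medians above the vehicle mean on each tBA array. These counts therefore do not show a trait particular to the members. The median SD of a member was 0.12 over the tBA arrays and 0.058 over the vehicle arrays; for the brightest 10% of genes it was 0.11 and 0.089, so the members differed from that class mainly in a smaller vehicle SD. The tBA SD was the larger in 34 of 44 members (77.3%), against 54.7% of all tested genes and 54.5% of the brightest 10%. Within slide 1, tBA replicate 1 minus the 3 vehicle arrays gave a median of 0.0096 with 23 of 44 members higher, against a median of 0.018 with 53.1% higher over all tested genes. The same values were obtained with slide as a fixed block, since the estimate then rests on tBA replicate 1 alone, and with a single tBA array these are values without a replicate check. Slide 2 held no vehicle array, so for replicates 2 and 3 slide and treatment cannot be told apart.

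**Figure D2:**
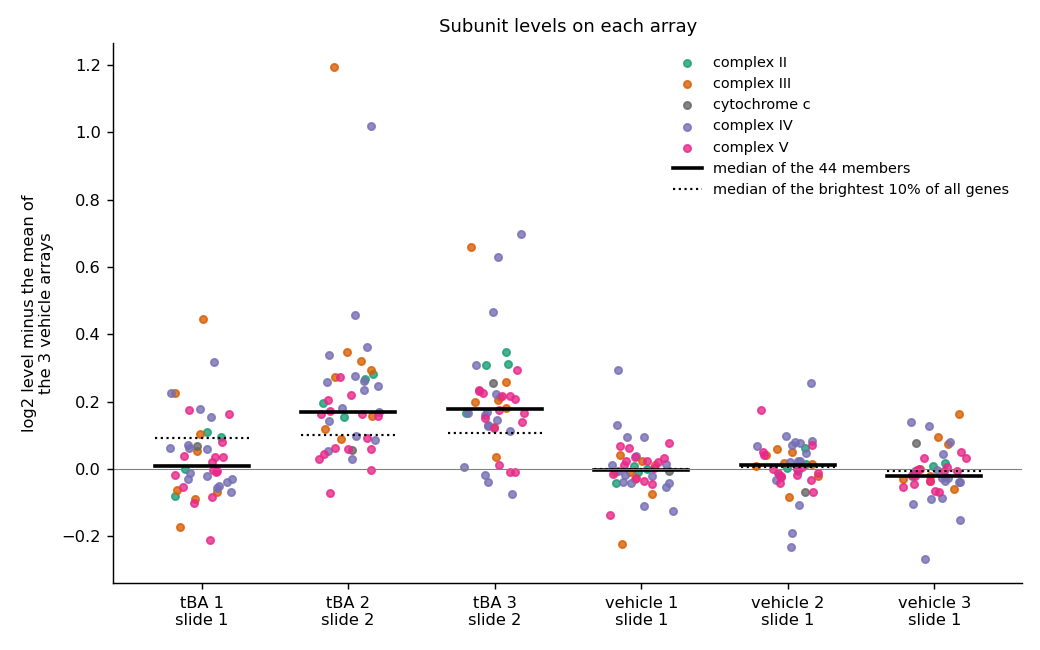
Log2 level of each of the 44 tested members minus its mean over the vehicle arrays (vertical axis), on each array (horizontal axis, with its slide); thick bars are medians of the members and dotted bars medians of the brightest 10% of all genes. The members' medians are 0.0096, 0.17 and 0.18 on tBA replicates 1 to 3, while the dotted bars are 0.093, 0.10 and 0.11.

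Promoters of the members were also examined. Of the 45 members, 38 had an entry in the RefSeq promoter table of the GRCr8 build. It covers 250 bases before to 50 after each gene's start. The comparison was with all promoters, not with those of strongly detected genes, and tBA was not part of it. Motifs were searched by their letters on both strands. The palindrome bound by the nuclear respiratory factor NRF1, spelled by the capitals of the Atp5po window, was present in 3 of 38 members (7.89%) and in 0.852% of all 33469 promoters in the table. CCGGAAGT, the core of ETS factors such as GABP, was present in 5 members (13.2%) and 3.81% of all promoters. AANATGGCG, a YY1 core, was present in 5 members (13.2%) and 3.01% of all promoters, and the longer YY1 element, which overlaps it, in 1 member and 0.675%. TATAAA was present in 4 members (10.5%) and 14.2% of all promoters.

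A member with each of the first 3 motifs, and with tBA values above the vehicle range, shows what these windows look like; all 3 genes are on the minus strand, and the sequences read 5′ to 3′ along the gene with the motif in capitals. Bases are counted from the gene's start, negative before it. The Uqcrq window is chr10:38089929-38090228 with an ETS core that starts at base -22, the Uqcr10 window is chr14:83791865-83792164 with a YY1 core that starts at base 28, and the Atp5po window is chr11:44657434-44657733 with an NRF1 palindrome that starts at base -59. The Uqcr10 window also holds TATAAA, which starts at base -55. The 3 genes were chosen after their values were seen. These are matches of letters and do not show binding.
Uqcrq: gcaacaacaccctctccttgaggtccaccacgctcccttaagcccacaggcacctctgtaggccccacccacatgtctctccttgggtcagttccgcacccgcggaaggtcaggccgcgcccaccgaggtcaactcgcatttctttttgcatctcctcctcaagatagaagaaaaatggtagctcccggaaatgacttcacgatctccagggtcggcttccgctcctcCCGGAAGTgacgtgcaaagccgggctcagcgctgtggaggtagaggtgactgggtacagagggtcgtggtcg
Uqcr10: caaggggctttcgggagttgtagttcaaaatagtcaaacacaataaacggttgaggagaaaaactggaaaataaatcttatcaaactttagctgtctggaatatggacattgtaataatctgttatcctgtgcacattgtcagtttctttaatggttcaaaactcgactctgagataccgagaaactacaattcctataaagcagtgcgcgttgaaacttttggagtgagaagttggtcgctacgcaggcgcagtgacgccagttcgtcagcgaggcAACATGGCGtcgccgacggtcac
Atp5po: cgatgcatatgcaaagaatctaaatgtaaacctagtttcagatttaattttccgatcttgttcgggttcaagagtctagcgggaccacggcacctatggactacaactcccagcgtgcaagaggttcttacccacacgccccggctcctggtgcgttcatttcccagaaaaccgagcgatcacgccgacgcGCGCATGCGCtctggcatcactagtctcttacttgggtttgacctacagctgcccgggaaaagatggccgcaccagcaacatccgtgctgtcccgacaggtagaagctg

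In complex II all 4 subunits were higher with tBA, with a median difference of 0.17, and none passed the adjusted test. Sdha, the flavoprotein that oxidises succinate, was at 6.37, 6.61 and 6.77 on tBA replicates 1 to 3, against 6.45, 6.44 and 6.47 on the vehicle arrays. Replicate 1 was thus below all vehicle arrays and the other tBA arrays above them, for a difference of 0.13 (SE 0.12, adjusted p = 0.606 in limma). A second probe of Sdha was at -0.049 (SE 0.11), the opposite sign. Sdhb, the iron-sulfur subunit, was at 4.85, 5.11 and 5.01 with tBA and 4.80, 4.91 and 4.83 with vehicle, which overlap.

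Sdhc and Sdhd anchor the complex in the membrane and bind ubiquinone. Sdhc was at 4.25, 4.43 and 4.50 with tBA, against 4.14, 4.16 and 4.16 with vehicle. The vehicle arrays were close together (SD 0.0098) and all tBA arrays lay above them, at a difference of 0.24 (SE 0.097, unadjusted p = 0.0457, adjusted p = 0.311 in limma). Sdhd was likewise higher without overlap, at 5.70, 5.78 and 5.90 with tBA and 5.60, 5.60 and 5.57 with vehicle, a difference of 0.20 (SE 0.090, adjusted p = 0.333). On slide 1 alone, Sdhc and Sdhd on tBA replicate 1 exceeded the vehicle mean by 0.096 and 0.11.

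Complex III held the largest difference of any member. In all, 7 of 8 tested subunits were higher, with a median difference of 0.14, and none passed the adjusted test. Uqcrq, a small supernumerary subunit, was at 0.55, 1.30 and 0.76 on tBA replicates 1 to 3, against -0.12, 0.16 and 0.27 on the vehicle arrays. The groups did not overlap, and the difference was 0.77 (SE 0.21, 95% interval 0.25 to 1.29, adjusted p = 0.236 in limma), a fold of 1.70. On slide 1 alone it was 0.44, and tBA replicates 2 and 3 minus the vehicle mean gave 0.93. Its second probe was above background on vehicle replicate 3 alone and could not check this.

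Uqcr10, another small subunit, was at 7.89, 7.96 and 7.88 with tBA, against 7.68, 7.58 and 7.74 with vehicle. Here tBA replicate 1 lay between the other pair, and the difference of 0.24 (SE 0.087, adjusted p = 0.282 in limma) was 0.22 on slide 1 alone. Uqcrb, also a small subunit, was at 6.77, 7.02 and 6.93 with tBA and 6.71, 6.69 and 6.61 with vehicle, a difference of 0.24 (SE 0.098, adjusted p = 0.317) that was 0.10 on slide 1 alone. All 4 of its probes had the same sign. Uqcr11 was at 0.11 without overlap, and Uqcrh, the hinge protein that helps cytochrome c dock, was at 0.064 with overlap.

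The large core and catalytic subunits did not separate the groups. Uqcrfs1, the Rieske iron-sulfur protein, was at 5.14, 5.48 and 5.40 with tBA, against 5.13, 5.18 and 5.30 with vehicle, a difference of 0.14 (SE 0.12, adjusted p = 0.584 in limma). Uqcrc1, a core protein, was at 4.41, 4.70 and 4.62 with tBA and 4.60, 4.59 and 4.54 with vehicle. Replicate 1 lay below the vehicle range and the other pair above it, so the difference was -0.0068 (95% interval -0.26 to 0.25). Its partner Uqcrc2 was at 0.15 with the same pattern over the arrays. Cytochrome c, Cycs, was at 5.31, 5.30 and 5.50 with tBA and 5.24, 5.17 and 5.32 with vehicle, a difference of 0.13 (SE 0.098, adjusted p = 0.542), and its 5 probes had the same sign.

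**Figure D3:**
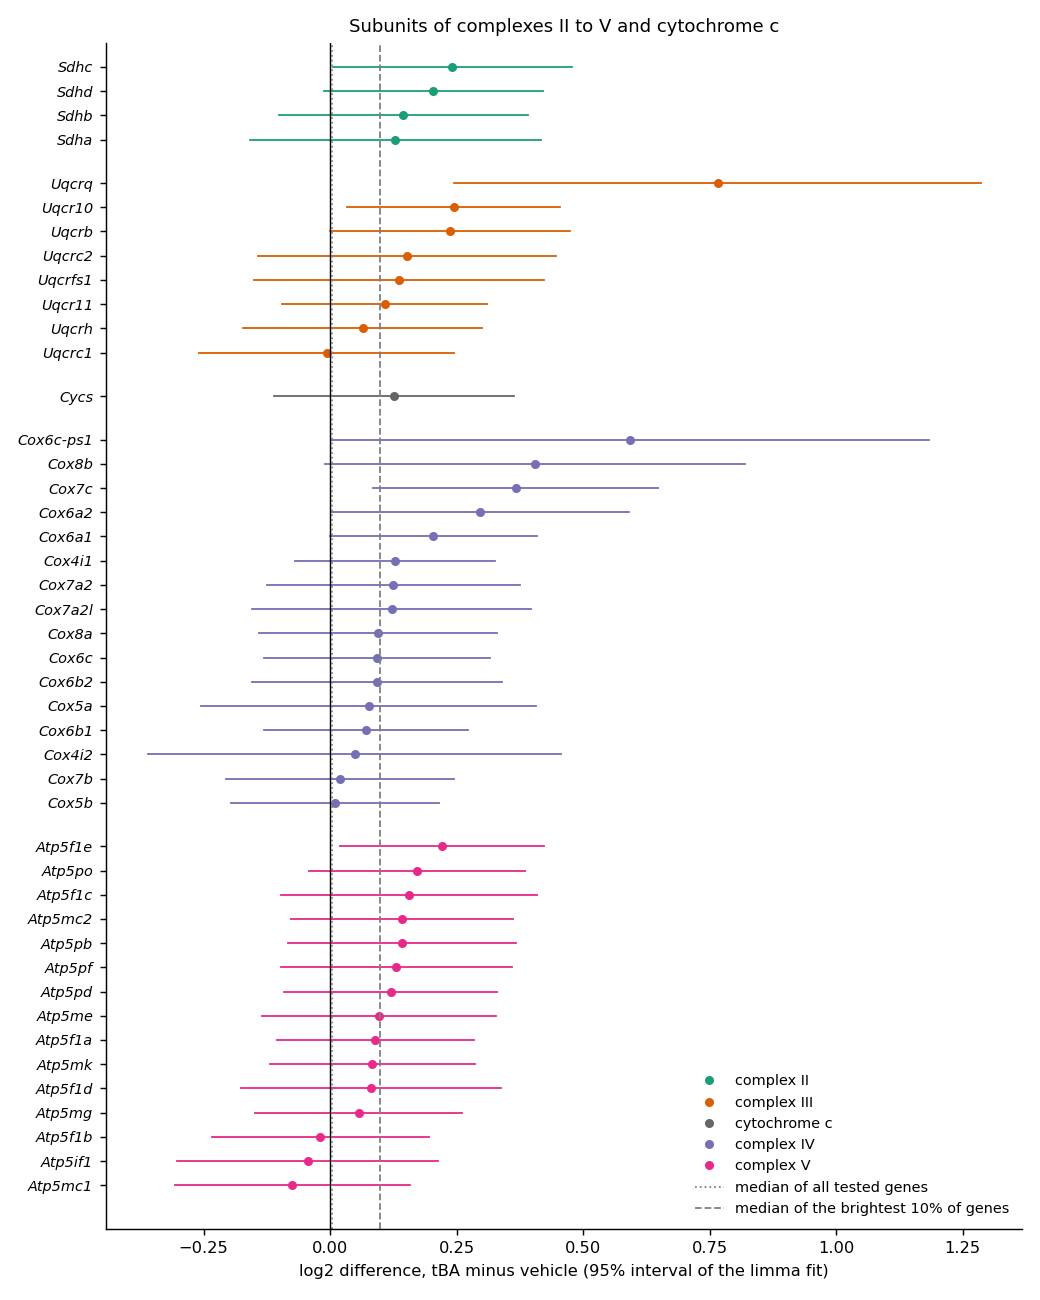
Log2 difference, tBA minus vehicle (horizontal axis), of each of the 44 tested members with the 95% interval of the limma fit, by complex and ordered by size within it; the dotted line is the median of all tested genes and the dashed line that of the brightest 10%. Points lie right of 0 for 40 members, and the intervals of 7 exclude 0 before adjustment.

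In complex IV all 16 tested members were higher, with a median difference of 0.11, close to the 0.098 of the brightest 10% of genes, and none passed the adjusted test. Cox4i1, a regulatory subunit that binds ATP, was at 7.57, 7.69 and 7.65 with tBA and 7.49, 7.53 and 7.50 with vehicle. All tBA arrays were above the vehicle arrays, by 0.13 (SE 0.082, adjusted p = 0.465 in limma) and by 0.059 on slide 1 alone, and its other probe was on the same side. Cox5a and Cox5b were at 0.076 (SE 0.14) and 0.0092 (SE 0.085). Cox5a was at 5.98, 6.39 and 6.01 with tBA and 6.14, 6.04 and 5.96 with vehicle, so replicate 2 alone lay above the vehicle range. The other probes of Cox5b were at 0.0014 and 0.022.

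Cox7c, a small subunit, was the complex IV coding gene with the lowest p. It was at 2.73, 3.01 and 3.02 with tBA, against 2.45, 2.62 and 2.60 with vehicle, a difference of 0.37 (SE 0.12, adjusted p = 0.261 in limma) without overlap, and 0.18 on slide 1 alone. Cox6c-ps1, annotated as a pseudogene of Cox6c, was at 0.89, 1.85 and 1.53 with tBA and 0.81, 0.72 and 0.96 with vehicle. Replicates 2 and 3 were high and replicate 1 was within the vehicle range, for a difference of 0.59 (SE 0.24, adjusted p = 0.316) that was 0.062 on slide 1 alone. Cox6c itself was at 0.093. In the GRCr8 annotation 25 members have a listed pseudogene, 61 such loci in all, so near-identical copies could add to their signal, and Cox6c-ps1 and Cox6c cannot be separated with certainty.

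Several complex IV subunits come in isoforms, a liver or general form and one of heart and skeletal muscle, lung or testis. The general form Cox6a1 was at 8.29, 8.37 and 8.36 with tBA, against 8.10, 8.22 and 8.10 with vehicle, higher without overlap by 0.20 (SE 0.084, adjusted p = 0.317 in limma). The muscle form Cox6a2 was at -0.92, -0.98 and -0.93 with tBA and -1.15, -1.47 and -1.10 with vehicle, a difference of 0.30 (SE 0.12, adjusted p = 0.316) that was 0.32 on slide 1 alone. The other tested probes of Cox6a2 were at -0.011 and -0.17, so they did not share its sign. Cox7a2 and Cox8a, the liver forms of their subunits, were at 0.12 and 0.095 with overlapping groups.

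The muscle form Cox8b was at -3.74, -3.60 and -3.34 with tBA and -3.95, -3.71 and -4.23 with vehicle, with overlap. The difference was 0.41 (SE 0.17, adjusted p = 0.322 in limma), and 0.23 on slide 1 alone. The other probe of Cox8b was at 0.072 (SE 0.35). By mean signal, Cox8b was in the dimmest class of tested genes. Cox4i2, the lung form, was at 0.048 (SE 0.17) by its brightest probe and at 0.40 (SE 0.12, adjusted p = 0.248) by the other, where the tBA values of 1.98, 2.32 and 2.31 lay above the vehicle values of 1.77, 1.83 and 1.82. Cox6b2, a testis form, was at 0.092 by its brightest probe and -0.46 by the other. Beside these, the summed linear level of 14 named muscle markers was 5.00, 5.54 and 5.95 with tBA and 4.91, 4.90 and 5.32 with vehicle. Of these markers 8 were tested, 4 higher and 4 lower, and the myosins Myh1, Myh4, Myh6 and Myh7 were on no array well above background. Actc1 was the brightest of the markers on every array, at 1.73, 1.79 and 2.01 with tBA and 1.68, 1.73 and 1.76 with vehicle. Most of the summed muscle level was this single gene, so the sum does not stand for muscle tissue. The part of other cell types in the isoform values was not tested.

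**Figure D4:**
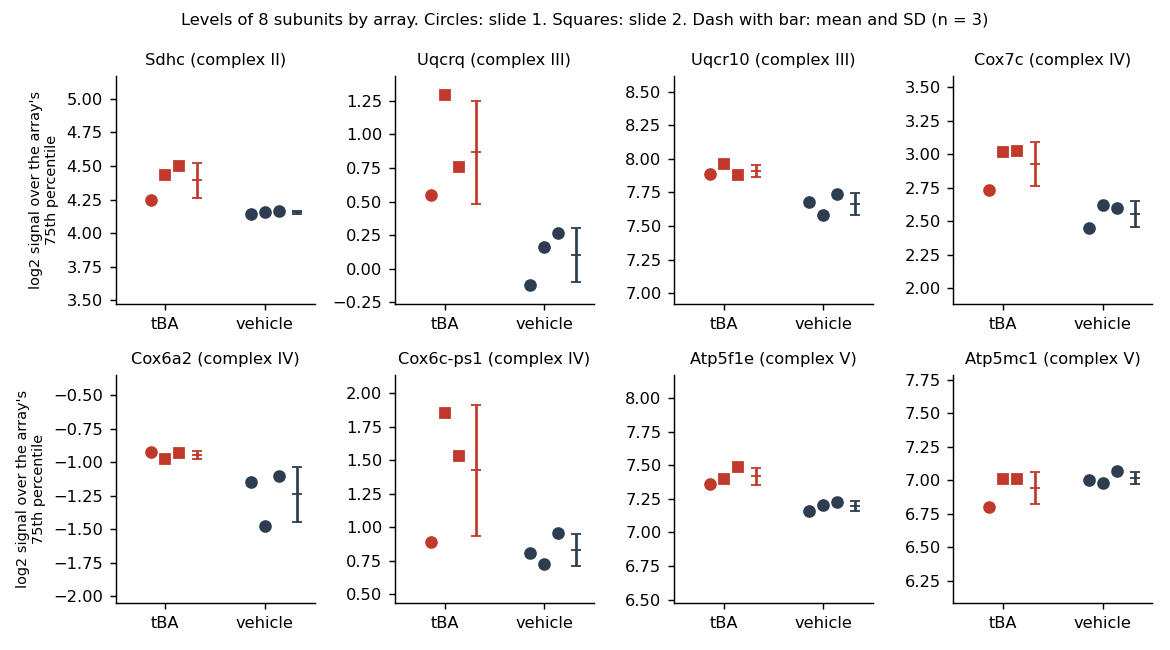
Log2 signal over the array's 75th percentile (vertical axis, with the same span in each panel) of 8 members on each array, tBA left of vehicle; circles are arrays of slide 1, squares of slide 2, and dashes with bars the mean and SD (n = 3). Sdhc, Uqcrq, Uqcr10, Cox7c, Cox6a2 and Atp5f1e show no overlap, while tBA replicate 1 lies within the vehicle values in Cox6c-ps1 and below them in Atp5mc1.

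In complex V 12 of 15 members were higher and 3 lower, with a median difference of 0.097, and none passed the adjusted test. The F1 head, where ATP is made, held both signs. Its catalytic beta subunit Atp5f1b was at 5.21, 5.34 and 5.33 with tBA and 5.38, 5.31 and 5.25 with vehicle, a difference of -0.020 (95% interval -0.23 to 0.19). The alpha subunit Atp5f1a was at 8.20, 8.25 and 8.30 with tBA, against 8.18, 8.14 and 8.15 with vehicle, above without overlap by 0.089 (SE 0.080, adjusted p = 0.598 in limma). A second Atp5f1a probe was at -0.086 (SE 0.12).

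Atp5f1e, the epsilon subunit of the central stalk, was the member of complex V with the lowest p. It was at 7.36, 7.40 and 7.49 with tBA and 7.16, 7.20 and 7.23 with vehicle, a difference of 0.22 (SE 0.083, adjusted p = 0.295 in limma), or 0.16 on slide 1 alone. The peripheral stalk subunits Atp5po and Atp5pb, which hold the head still, were also higher without overlap. Atp5po was at 6.33, 6.47 and 6.47 with tBA and 6.32, 6.21 and 6.23 with vehicle, a difference of 0.17 (SE 0.088, adjusted p = 0.383), or 0.079 on slide 1 alone. For Atp5pb the difference was 0.14 (SE 0.093).

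The proton-carrying c-ring is encoded by several genes for the same mature protein, and those measured differed in sign. Atp5mc1 was at 6.80, 7.01 and 7.01 with tBA and 7.00, 6.98 and 7.07 with vehicle, a difference of -0.075 (SE 0.096, adjusted p = 0.713 in limma), with replicate 1 lowest. Its second probe was also below 0, at -0.12. Atp5mc2 was at 0.14 (SE 0.090) by its brightest probe, while its other probes were at -0.011 and -0.067. Atp5if1, the inhibitor that blocks ATP hydrolysis when the proton gradient is lost, was at 3.67, 3.66 and 3.72 with tBA and 3.59, 3.90 and 3.69 with vehicle, a difference of -0.045 (95% interval -0.30 to 0.21).

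Where a member had several tested probes, they mostly shared its sign. Of 23 such members, 18 had all probes on 1 side and 5 did not, namely Sdha, Cox6a2, Cox6b2, Atp5f1a and Atp5mc2. Over the 33 other probes, 24 were higher and 9 lower, with a median difference of 0.066, below the 0.12 of the brightest probes. A further 19 members had a single probe.

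Neighbouring mitochondrial gene lists were set beside the members. A list of 33 genes was taken by the symbols of complex I subunits, which feed electrons from NADH. Not every gene with such a symbol need be a complex I subunit. Of the 33, 29 were higher (87.9%, against 50.6% of all tested genes and 70.6% of the brightest 10%) and 4 lower. Their median was 0.092. The array pattern was like that of the members, with medians of 0.0092, 0.13 and 0.19 on tBA replicates 1 to 3. An adjusted p under 0.05 was found for 0 of them, and an unadjusted limma p under 0.05 for 3, all higher (9.09%, near the 7.64% of all tested genes). The lowest p was that of Ndufa6, a complex I subunit, at 7.35, 7.38 and 7.37 with tBA and 7.13, 7.10 and 7.13 with vehicle (difference 0.24, SE 0.077, adjusted p = 0.258 in limma).

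The citric acid cycle list had 12 of 13 higher, 0 at an unadjusted p under 0.05 and a median of 0.13, with 0.023, 0.17 and 0.15 on tBA replicates 1 to 3. Its lowest p was that of citrate synthase, Cs, at 0.17 (SE 0.079, adjusted p = 0.348 in limma). In the list of 34 assembly factors of complexes II to V, 23 were higher and 11 lower, the median was 0.061, and 4 had an unadjusted p under 0.05, all higher (11.8%, against 7.64% of all tested genes). Medians there were 0.083, 0.059 and 0.075 on tBA replicates 1 to 3, without a lower replicate 1. Lyrm7, an assembly factor of complex III, had the lowest p, at 0.54 (SE 0.14, adjusted p = 0.222 in limma), or 0.32 on slide 1 alone.

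Of 15 regulators of mitochondrial biogenesis 12 were higher, with a median of 0.18 and 3 (20%) at an unadjusted limma p under 0.05, all higher, against 7.64% of all tested genes. Their medians were 0.16, 0.25 and 0.080 on tBA replicates 1 to 3, so here replicate 3 was lowest and replicate 1 was not. The mitochondrial transcription factor Tfb2m was at 1.43, 1.60 and 1.44 with tBA and 1.16, 1.07 and 1.12 with vehicle, higher without overlap by 0.37 (SE 0.091, adjusted p = 0.209 in limma). The coactivator Ppargc1a was at 0.39 (SE 0.31), with tBA replicate 2 far above the others. Of 7 tested carriers of ADP, phosphate and metabolites across the mitochondrial membranes 6 were higher, with a median of 0.083. Their medians were 0.044, 0.13 and 0.11 on tBA replicates 1 to 3. An unadjusted limma p under 0.05 was found for 1 of the 7, which was higher (14.3%, against 7.64% of all tested genes). This was the outer membrane channel Vdac3, at 0.26 (SE 0.082, adjusted p = 0.258). In these 5 lists 0 genes passed the adjusted test.

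Markers of other cell types were measured on the same arrays. Of 5 named adipocyte markers, Cidea and Fabp4 were tested and were higher by 1.57 (adjusted p = 0.177 in limma) and 0.40, Adipoq, Lep and Ucp1 were on no array well above background, and the summed level was 13.5, 9.99 and 14.1 with tBA and 4.02, 6.47 and 2.96 with vehicle. Nearly all of this sum was Cidea alone, for example 13.3 of 13.5 on tBA replicate 1 and 3.92 of 4.02 on vehicle replicate 1, so it is the level of 1 gene and not of the cell type. Cidea is also expressed by fatty hepatocytes. The summed hepatocyte level was 4265, 4448 and 4500 with tBA, against 4470, 4255 and 4057 with vehicle. Of its 8 markers 6 were higher, with a median difference of 0.034 over the 8. Cyp2e1 was at 0.69, while Apoa1 was at -0.36 and Serpina1 at -0.17, so this sum mixes genes of both signs. Medians of the macrophage, endothelial, stellate, bile duct, T and NK cell, B cell, red blood cell and pancreatic markers were -0.20, 0.17, -0.12, -0.080, -0.33, -0.46, 0.046 and 0.23, with 0 genes passing. They rest on 6, 4, 5, 3, 4, 2, 4 and 2 tested genes in that order. The B cell median came mostly from tBA replicate 2, at -1.47, against -0.018 and 0.11 on replicates 1 and 3. The part of these markers in the subunit values was not tested.

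The subunit shift depended on how the arrays were scaled. With quantile normalization the median of the 44 members was 0.016, against 0.12 with the 75th percentile, and 28 members were higher. Over all tested genes the median was then -0.011, with 47.7% higher. The medians of complexes II to V were then 0.080, 0.066, 0.018 and 0.0037. Scaling to each array's median gave 0.20 and 43 higher, with the median of all tested genes at 0.076 and 62.8% of them higher. Leaving out tBA replicate 1 gave a median of 0.17, and leaving out replicate 2 or 3 gave 0.096 and 0.10. In every setting tried, 18 of the 44 members kept a difference above 0, among them Uqcrq, Uqcr10, Uqcrb, Sdhc, Sdhd, Cox7c, Cox6a1, Atp5f1e and Atp5po, and the lowest adjusted p of any member in any setting was 0.132.

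**Figure D5:**
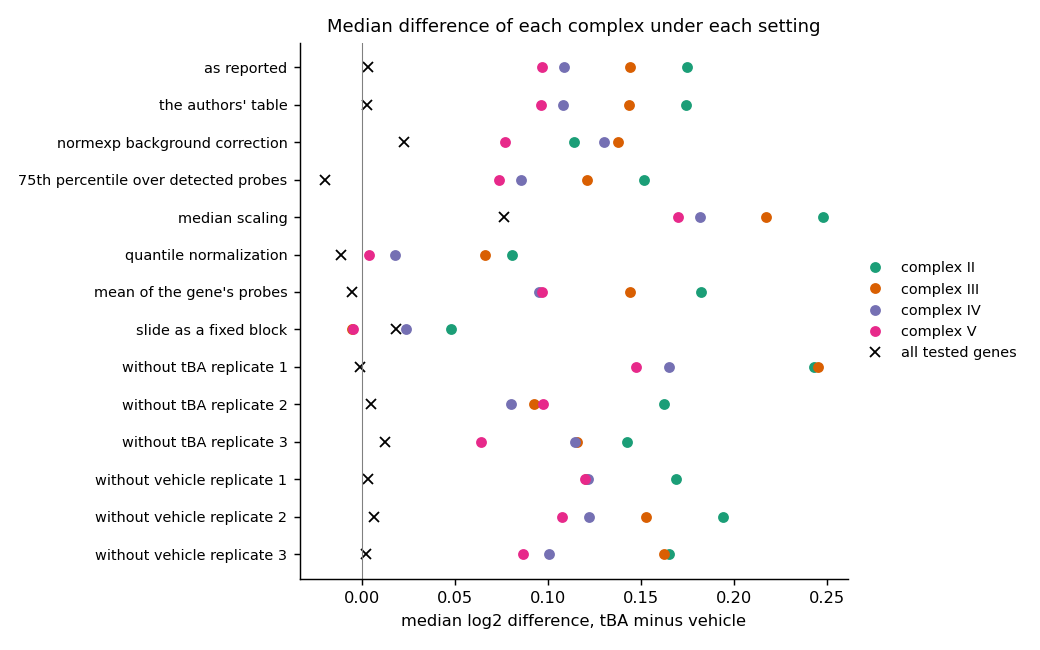
Median log2 difference, tBA minus vehicle (horizontal axis), of the tested members of complexes II to V (coloured points) and of all tested genes (crosses) under each setting (rows). The complexes' medians lie between 0.097 and 0.17 as reported, between 0.0037 and 0.080 with quantile normalization, and between -0.0053 and 0.048 with slide as a block.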

How the data were processed

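Liver RNA of 3 tBA and 3 vehicle rats was hybridised to 1-colour (Cy3) arrays. Per the file headers, the deposited processed signal intensity of each spot came from Agilent Feature Extraction 10.7.1.1 (10.7 per the submitters' processing notes), with annotation of build rn4. The authors' deposited series table holds, for each probe, the ratio of the processed signal to the array's 75th percentile, as its values set against the intensities show; it was used as an alternative. Outlier spots were left out, each array's 75th percentile over 61657 non-control probes was subtracted on the log2 scale, and no floor was set.

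Probes well above background throughout either group were tested with limma 3.58.1 (lmFit, eBayes; R 4.3.3), with Benjamini-Hochberg adjustment over 37647 probes. Array accessions were matched to RefSeq symbols, which named 27460 probes. A gene took its probe with the highest mean log2 intensity. P-values measure the spread between these 6 arrays, and their number limits the precision. The members, complexes and gene lists were chosen with earlier results of these data known. Values were given for every member with an unadjusted p under 0.05, the highest and lowest of each complex, fixed catalytic and isoform members, and the gene with the lowest p in each neighbouring list. Sdhd, Uqcrb, Uqcr11, Uqcrh, Uqcrc2, Cox5b, Cox6c, Atp5po, Atp5pb, Atp5mc2, Ppargc1a, Cidea and Fabp4 were named after their values were seen. The fit was tested on simulated data with added changes larger than any member's difference and without a slide effect. That test does not bear on shifts of the members' size or on the slide. Alternatives changed the scaling, background correction (normexp on median signals, offset 50), filter, variance trend, slide block, replicate block, probe choice and arrays included. Of the sequences, only promoters were used, and no probe sequence or genome was used here.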

Additional observations from a re-analysis of the deposited data

How the results depend on the processing

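No member passed the adjusted test under any of the 19 alternatives. The count of members higher at an unadjusted p under 0.05, 7 as reported, was 4 with quantile normalization, 12 with median scaling, 3 with the percentile over detected probes, 2 without a filter on dim probes, 11 with an intensity trend and 0 with slide as a block or on slide 1 alone. The share of all tested genes higher by that rule was 7.64% as reported. It was 6.47%, 13.4%, 5.99%, 5.43%, 9.46%, 3.73% and 3.51% in these settings, in the same order. Leaving out 1 array in turn gave 1 to 10 members: 1 without tBA replicate 2, tBA replicate 3 or vehicle replicate 1, 3 and 4 without vehicle replicates 2 and 3, and 10 without tBA replicate 1. The shares of all tested genes were then 4.57%, 6.18%, 5.29%, 5.6%, 6.35% and 7.41%, in that order. With the authors' values the members' count was 8 and the share 7.61%. There, and without tBA replicate 1, the count was above the reported count and the share below the reported share. The replicate numbers did not pair the arrays (same-number correlations -0.048, -0.056 and 0.018), and with the replicate block the count was 2, with 5.56% of all tested genes. The count of members above 0, 40 as reported, was 23 with slide as a block or on slide 1 alone. Of all tested genes, 50.6% were above 0 as reported and 53.1% in those settings. Those 2 slide settings gave medians of 0.0096 for all members, 0.048, -0.0053, 0.023 and -0.0050 for complexes II to V, and 0.0092, 0.083, 0.023 and 0.044 for the complex I, assembly, citric acid cycle and transport lists. Quantile normalization gave 0.016 for all members, 0.018 and 0.0037 for complexes IV and V, and 0.0032, 0.032, 0.063 and 0.029 for those lists. Median scaling gave 0.20 for all members, 0.17 for complex V, 0.16, 0.13, 0.20 and 0.16 for those lists, and 0.26 for the regulators. The assembly list was at 0.038 with the percentile over detected probes and 0.077 with normexp, and the transport list at 0.13 with normexp and 0.030 to 0.13 with 1 array left out (lowest without tBA replicate 2, highest without vehicle replicate 2). Of 29 named genes, 18 kept their sign in every alternative. Signs turned with quantile normalization for Atp5f1a (-0.020), Cox5a (-0.032) and Cox8a (-0.022), with median scaling for Atp5f1b (0.053), Atp5if1 (0.029) and Uqcrc1 (0.066), with normexp for Uqcrc1 (0.073), and with the mean over probes for Cox6b2 (-0.18). They turned in both slide settings for Cox4i2 (-0.058), Cox5a (-0.070), Cox7a2 (-0.012), Cox8a (-0.051), Sdha (-0.080) and Uqcrfs1 (-0.063). With 1 array left out, ranges crossed 0 for Atp5f1b (-0.054 to 0.021), Atp5if1 (-0.11 to 0.042), Cox4i2 (-0.066 to 0.20), Cox5a (-0.055 to 0.15) and Uqcrc1 (-0.069 to 0.077). The slide settings rest on 1 tBA array; for the other settings the cause was not tested.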
